A study of Homo sapiens with 4 samples.

Results

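The mRNAs described here are those of 60 genes of the cell cycle and of DNA replication, in RNA that came down with KIAA1429 or with normal IgG. A gene was included if its name was on a list of cyclins, cyclin-dependent kinases (CDKs), CDK regulators, replication factors, enzymes of nucleotide supply, checkpoint genes and mitotic genes, whatever its value. All 60 were among the 13300 gene names in the data, with 184 of the 34975 listed transcripts, of which 150 were typed protein_coding and 34 processed_transcript. RNA immunoprecipitation sequencing (RIP-seq) was performed on lysates of HCCLM3, a human hepatocellular carcinoma cell line, to find transcripts bound by KIAA1429, a subunit of the complex that places N6-methyladenosine (m6A) on mRNA. Precipitates with an antibody against KIAA1429 (KIAA1429 RIP) were compared with precipitates with normal IgG (IgG RIP), with 2 libraries per group numbered 1 and 2. No other treatment or genetic change of the cells is given for either group, and the labels do not say whether the replicates are separate cultures, so the p-values below measure only the spread between these libraries, which may be technical.

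The cell cycle runs on CDKs that are switched on in turn by cyclins. D-type and E-type cyclins drive cells through G1 and into S phase, where origins licensed by the ORC, CDC6, CDT1 and MCM proteins fire and the polymerases copy the genome on the PCNA clamp. Cyclin A and cyclin B with CDK1 then drive mitosis, in which Aurora and Polo-like kinases build the spindle and the checkpoint holds anaphase back until every chromosome is attached. Many mRNAs of S phase are transcribed by E2F factors and many of G2 and mitosis through the CHR element of their promoters, so that both sets are abundant in dividing cells and low in resting cells.

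Values are FPKM, fragments of a transcript set against its length and against all fragments of its library, summed over the listed transcripts of a gene (gene totals), and pairs of values are given with library 1 before library 2. Of the 60 genes, 59 reached a mean of 1 FPKM over the 4 libraries and were tested. The gene below that level was ORC6, a subunit of the origin recognition complex, at 0.80 FPKM in IgG RIP 1, 2.32 FPKM in KIAA1429 RIP 1 and listed at 0 in both libraries numbered 2. FPKM summed to between 295573 and 340300 per library, read numbers were not recoverable from the values, and the depth of the libraries is therefore unknown. The 11 hepatocyte and hepatoma markers reported here summed to 414 to 507 FPKM, and ALB and AFP were present in each library. Of 5 epithelial markers 4 were listed (1290 to 1712 FPKM summed) and of 6 fibroblast and mesenchymal markers 2, VIM and COL3A1 (671 to 1092 FPKM summed). CDH1 was not listed, nor were the endothelial and erythroid markers. Of 4 leukocyte markers CD68 and CD14 were listed, summing to 30.8 to 73.0 FPKM. KIAA1429 itself, listed as VIRMA, was at 18.0 and 10.01 FPKM with IgG, against 18.2 and 11.6 FPKM with the KIAA1429 antibody, so its own mRNA did not separate the groups.

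**Figure D1:**
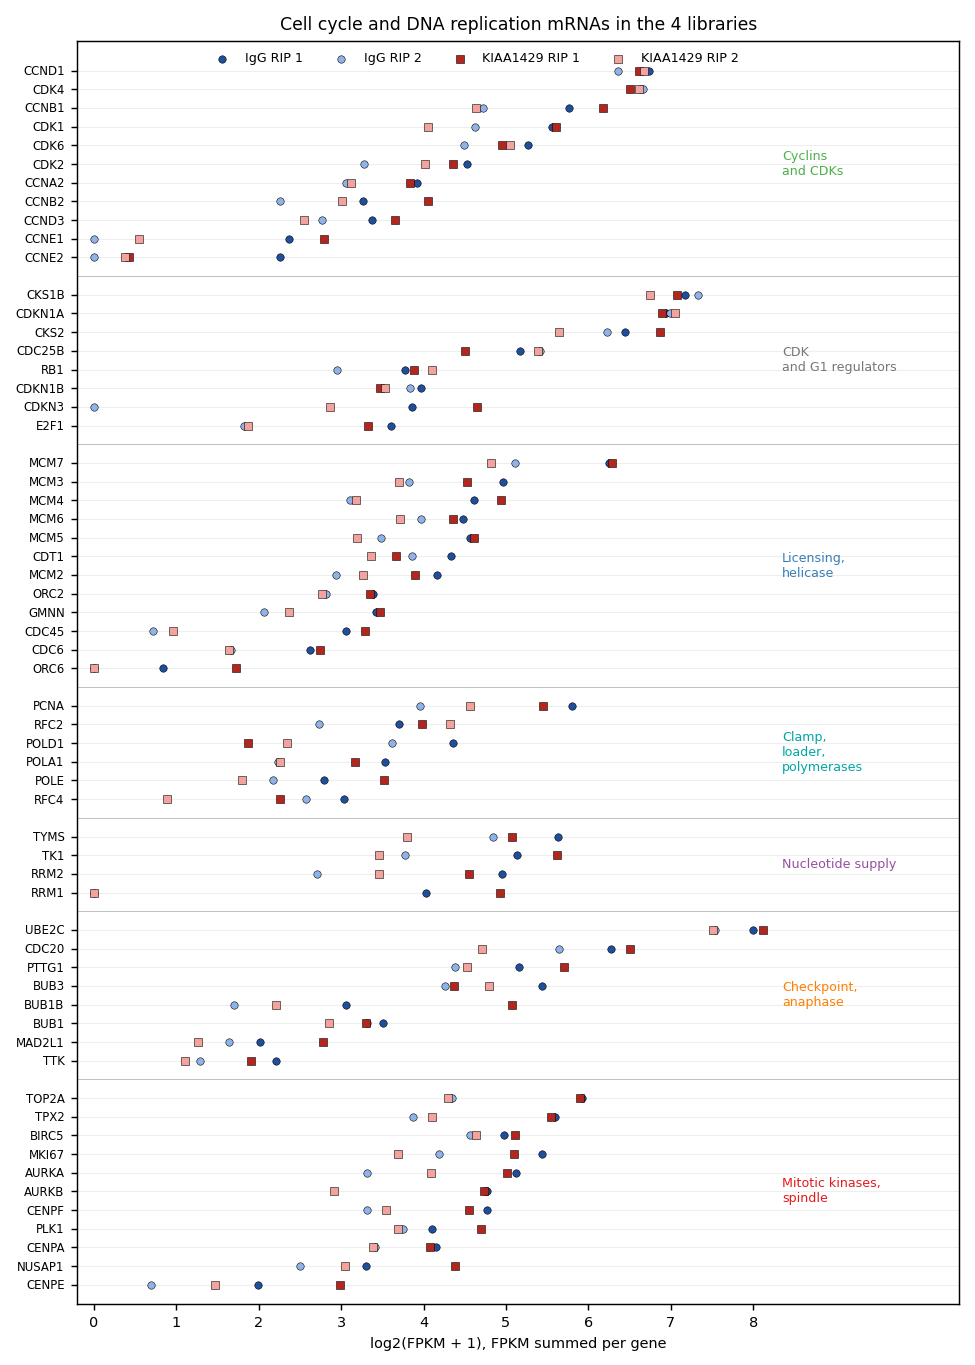
Level of each of the 60 mRNAs in each library as log2(FPKM + 1), with FPKM summed per gene (blue circles, IgG RIP 1 and 2; red squares, KIAA1429 RIP 1 and 2; darker symbols are the libraries numbered 1). Genes are grouped by role and ordered by mean level; for most of them the darker symbols lie to the right of the paler ones in both groups, while blue and red overlap.

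The mRNAs spanned a wide range of levels per length. UBE2C, the ubiquitin-conjugating enzyme of the anaphase-promoting complex, was the most abundant, at 253 and 185 FPKM with IgG, against 277 and 182 FPKM with the KIAA1429 antibody. CKS1B, CDKN1A, CCND1 and CDK4 followed, and the means of CCND1 and CDK4 over the 4 libraries, 96.2 and 96.1 FPKM, were closer than the spread of either. The median over the 59 tested genes was 16.3 FPKM, against 8.69 FPKM over all 11361 gene totals tested.

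No mRNA of the list passed the test between antibodies. In limma on log2(FPKM + 1), 0 of 59 gene totals were called higher and 0 lower (log2 fold change beyond 1, adjusted p under 0.05), where the background over all 11361 gene totals was 0% in each direction. At an unadjusted p under 0.05 there were 0 higher (background 3.17%) and 1 lower (background 1.43%). Both libraries of KIAA1429 RIP lay above both of IgG RIP for 2 genes, RB1 and RFC2, against 16.6% of all gene totals. They lay below for 8 genes, CDK4, CDKN1B, CKS1B, CDT1, RFC4, POLD1, BUB1 and AURKB, against 15.2%, so the share separated upwards was smaller than the background and the share separated downwards close to it. With 2 libraries against 2, an exact two-sided permutation test of a single gene cannot give a p below 0.333. Scaling the libraries to the same FPKM sum moved the split to 1 higher and 9 lower, with backgrounds of 11.2% and 21.5%. Median scaling gave 2 higher and 6 lower, as did the most abundant transcript of each gene. Group means differed at least 2-fold upwards for 4 genes (background 7.58%) and downwards for 3 (background 6.14%). The median log2 ratio of group means was -0.03 over the list and 0.01 over all gene totals, while the median log2 difference of log2(FPKM + 1) was 0.03 and 0.02, so the sign over the list depended on the scale.

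**Figure D2:**
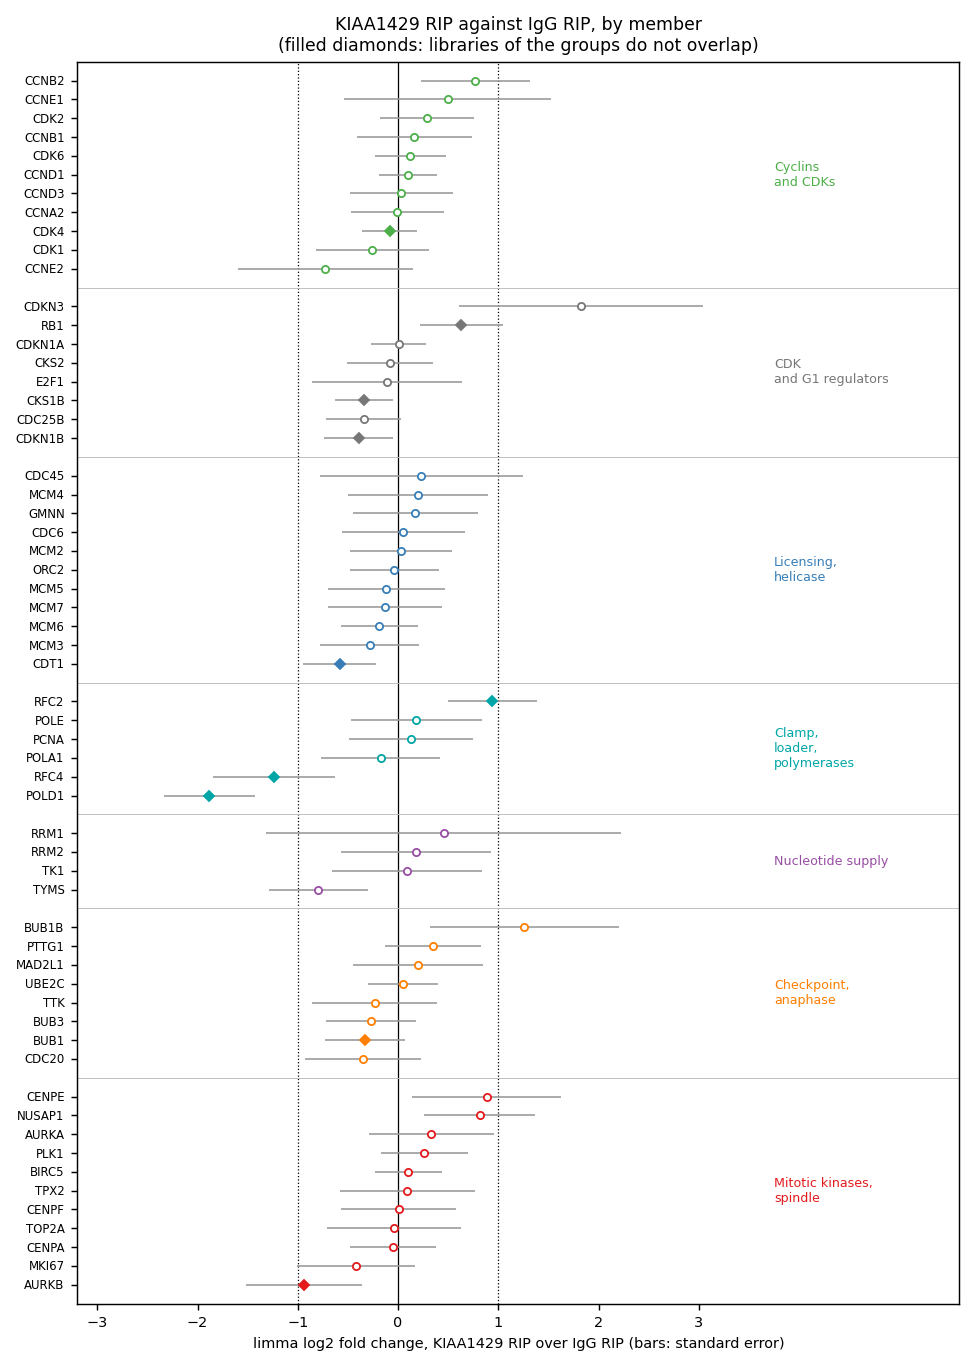
Log2 fold change of KIAA1429 RIP over IgG RIP from limma on log2(FPKM + 1) for the 59 tested genes, with the standard error as bars and dotted lines at the threshold of 1 in either direction. Filled diamonds are the 10 genes whose libraries did not overlap between groups; POLD1 lies farthest to the left at -1.88.

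Among the cyclins and CDKs, 0 of 11 genes were separated upwards and 1, CDK4, downwards. CDK4, the G1 kinase that pairs with D-type cyclins, was at 97.3 and 100.6 FPKM with IgG, against 89.9 and 96.7 FPKM with the KIAA1429 antibody. The groups did not overlap but lay close together, with a limma log2 fold change of -0.08 (SE 0.27, adjusted p = 0.997). Its partner cyclin D1 (CCND1) was at 105 and 80.9 FPKM with IgG, against 97.0 and 101 FPKM with the KIAA1429 antibody, where the antibody values fell between the control values. CDK1, the mitotic kinase, was at 46.2 and 23.6 FPKM with IgG, against 47.9 and 15.6 FPKM with the KIAA1429 antibody. Cyclin B1 (CCNB1), which activates it, was at 53.5 and 25.4 FPKM with IgG, against 71.5 and 23.8 FPKM with the KIAA1429 antibody. For both genes the KIAA1429 RIP libraries held the highest and the lowest value. Cyclin E2 (CCNE2), which acts at the start of S phase, had the lowest log2 ratio of the list (-2.55). But this rested on IgG RIP 1 at 3.79 FPKM, since IgG RIP 2 was listed at 0 and the KIAA1429 RIP libraries were at 0.34 and 0.30 FPKM. Without IgG RIP 1 the difference on the log2(FPKM + 1) scale turned from -0.73 to 0.41.

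Of the 8 regulators of CDKs and of G1, 1 was separated upwards and 2 downwards. RB1, the retinoblastoma protein that restrains E2F, was at 12.7 and 6.73 FPKM with IgG, against 13.8 and 16.2 FPKM with the KIAA1429 antibody, a limma log2 fold change of 0.63 (SE 0.41, adjusted p = 0.997). CDKN1B (p27), a CDK inhibitor, was at 14.6 and 13.2 FPKM with IgG, against 10.1 and 10.61 FPKM with the KIAA1429 antibody (log2 fold change -0.39, SE 0.34). CKS1B, which binds CDKs and helps to mark p27 for destruction, was at 144 and 159 FPKM with IgG, against 134 and 107 FPKM with the KIAA1429 antibody. The lower levels of CDKN1B and CKS1B with the KIAA1429 antibody did not pass the test (limma adjusted p = 0.997 for each). CDKN1A (p21), the p53-induced CDK inhibitor, was the steadiest mRNA of the list, at 121 and 126 FPKM with IgG, against 118 and 131 FPKM with the KIAA1429 antibody, with a coefficient of variation over the 4 libraries of 4.62%. CDKN3, a phosphatase of CDKs, was at 13.6 FPKM and listed at 0 with IgG, against 24.1 and 6.29 FPKM with the KIAA1429 antibody. Its group means were more than 2-fold apart, yet the single values overlapped, and without IgG RIP 2 the difference on the log2(FPKM + 1) scale turned from 1.83 to -0.11.

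Origin licensing and the replicative helicase had 11 tested genes, of which 0 were separated upwards and 1 downwards. CDT1, which loads the helicase onto origins, was at 19.1 and 13.5 FPKM with IgG, against 11.7 and 9.30 FPKM with the KIAA1429 antibody (log2 fold change -0.58, SE 0.37, adjusted p = 0.997). The 6 helicase subunits MCM2 to MCM7 overlapped between the groups, with log2 ratios of group means from -0.35 (MCM3) to 0.28 (MCM4). MCM7, the most abundant of them, was at 75.3 and 33.4 FPKM with IgG, against 77.0 and 27.2 FPKM with the KIAA1429 antibody. MCM3 was at 30.3 and 13.2 FPKM with IgG, against 22.1 and 12.002 FPKM with the KIAA1429 antibody. MCM2 was at 16.9 and 6.69 FPKM with IgG, against 13.9 and 8.59 FPKM with the KIAA1429 antibody. In each of these helicase genes the libraries numbered 1 stood above the libraries numbered 2 whichever antibody was used. MCM4 was at 23.5 and 7.62 FPKM with IgG, against 29.6 and 8.09 FPKM with the KIAA1429 antibody. MCM5 was at 22.6 and 10.2 FPKM with IgG, against 23.5 and 8.13 FPKM with the KIAA1429 antibody. MCM6 was at 21.2 and 14.7 FPKM with IgG, against 19.5 and 12.1 FPKM with the KIAA1429 antibody. These 3 subunits likewise stood higher in the libraries numbered 1.

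Of the 6 genes of the replication fork, the clamp, its loader and the polymerases, 1 was separated upwards and 2 downwards. POLD1, the catalytic subunit of polymerase delta, was at 19.6 and 11.3 FPKM with IgG, against 2.66 and 4.08 FPKM with the KIAA1429 antibody. The lower IgG value was well above the higher KIAA1429 value, and the limma log2 fold change was -1.88 (SE 0.46), with an unadjusted p of 0.0046 and an adjusted p of 0.908, and between -2.26 and -1.51 over the other settings. RFC4, a subunit of the clamp loader, was at 7.19 and 4.98 FPKM with IgG, against 3.78 and 0.84 FPKM with the KIAA1429 antibody (log2 fold change -1.24, SE 0.61, adjusted p = 0.997). Of the 7.19 FPKM in IgG RIP 1, 5.38 FPKM were assigned to RFC4-204, listed at 0 in the other libraries, and on the most abundant transcript alone the difference for RFC4 turned to 0.59. RFC2, another subunit of the same loader, was separated the other way, at 11.98 and 5.63 FPKM with IgG, against 14.8 and 19.1 FPKM with the KIAA1429 antibody (log2 fold change 0.94, SE 0.44, adjusted p = 0.997). The difference between RFC2 and RFC4 was not tested. PCNA, the sliding clamp, was at 54.9 and 14.6 FPKM with IgG, against 42.9 and 22.7 FPKM with the KIAA1429 antibody, so the antibody values lay inside the range of the control values.

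None of the 4 enzymes of nucleotide supply was separated in either direction. TYMS, thymidylate synthase, had the lowest log2 ratio of group means among them (-0.74), at 48.5 and 27.7 FPKM with IgG, against 32.8 and 12.9 FPKM with the KIAA1429 antibody. TK1, thymidine kinase, was at 34.0 and 12.7 FPKM with IgG, against 48.2 and 9.99 FPKM with the KIAA1429 antibody. RRM1, the large subunit of ribonucleotide reductase, was at 15.3 FPKM in IgG RIP 1 and 29.5 FPKM in KIAA1429 RIP 1 and was listed at 0 in both libraries numbered 2. Whether these values of 0 reflect the level of the mRNA or its estimation was not tested, and no mean is given for RRM1. It stayed among the tested genes and in the counts below.

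Among the 8 genes of the spindle checkpoint and of anaphase control, 0 were separated upwards and 1 downwards. BUB1, a checkpoint kinase, was at 10.4 and 8.95 FPKM with IgG, against 8.90 and 6.22 FPKM with the KIAA1429 antibody (log2 fold change -0.33, SE 0.40), with barely a gap between the groups, and on its most abundant transcript alone the difference turned to 1.07. BUB1B (BubR1), which inhibits the anaphase-promoting complex, had the highest log2 ratio of the tested genes (1.93), at 7.32 and 2.26 FPKM with IgG, against 32.8 and 3.61 FPKM with the KIAA1429 antibody. This ratio rested on KIAA1429 RIP 1, where 27.7 FPKM were assigned to BUB1B-207, a processed_transcript listed at 0 in the other libraries. Without that library the difference on the log2(FPKM + 1) scale turned from 1.26 to -0.18. CDC20, the activator of the anaphase-promoting complex, was at 76.1 and 48.9 FPKM with IgG, against 89.4 and 25.2 FPKM with the KIAA1429 antibody.

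Of the 11 genes of mitotic kinases, spindle, centromere and chromosomes, 0 were separated upwards and 1 downwards. AURKB, the kinase of the chromosomal passenger complex, was at 26.4 and 25.8 FPKM with IgG, against 25.6 and 6.54 FPKM with the KIAA1429 antibody. KIAA1429 RIP 1 was close to the control values, so the log2 fold change of -0.94 (SE 0.58, adjusted p = 0.997) rested on KIAA1429 RIP 2 and was -0.02 without it. TOP2A, the topoisomerase that untangles chromosomes, was at 59.7 and 19.4 FPKM with IgG, against 58.5 and 18.7 FPKM with the KIAA1429 antibody. MKI67 (Ki-67), the proliferation marker that coats mitotic chromosomes, was at 42.3 and 17.3 FPKM with IgG, against 33.3 and 11.9 FPKM with the KIAA1429 antibody. TPX2, which activates Aurora A on the spindle, was at 47.3 and 13.6 FPKM with IgG, against 45.8 and 16.2 FPKM with the KIAA1429 antibody. In TOP2A, MKI67 and TPX2 the gap between the numbers was wider than any gap between the antibodies. NUSAP1, a spindle protein, was at 8.86 and 4.67 FPKM with IgG, against 19.8 and 7.28 FPKM with the KIAA1429 antibody. CENPE, a kinetochore motor, was at 2.97 and 0.62 FPKM with IgG, against 6.90 and 1.77 FPKM with the KIAA1429 antibody. Both had group means at least 2-fold higher with the KIAA1429 antibody, and their libraries overlapped.

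Replication genes (MCM2 to MCM7, ORC2, POLA1, POLD1, POLE and PCNA, with ORC6 not tested) were set against 23 mitotic genes (both mitotic roles with CCNA2, CCNB1, CCNB2 and CDK1). The median log2 ratio of group means was -0.07 over the 11 replication genes and 0.02 over the mitotic genes. The median log2(FPKM + 1) of replication genes less that of mitotic genes was -0.30 in IgG RIP 1, -0.27 in IgG RIP 2, -0.38 in KIAA1429 RIP 1 and -0.50 in KIAA1429 RIP 2. Replication genes were thus lower than mitotic genes in all 4 libraries, and the gap was wider by 0.15 with the KIAA1429 antibody in the mean of the libraries. This value moved to 0.02 in the other direction when protein_coding transcripts alone were summed, and no p is given for it. With all 17 tested genes of both replication roles in place of the 11, the medians differed by -0.61 and -0.81 with IgG, against -1.07 and -0.50 with the KIAA1429 antibody. In that form the antibody difference was -0.08, and it was -0.46 between the libraries numbered 1 and 0.31 between those numbered 2.

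Of the 25 genes that are not named singly above, the libraries of all 25 overlapped between antibodies, with limma log2 fold changes from -0.34 (CDC25B) to 0.77 (CCNB2).

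The larger differences lay between the libraries numbered 1 and those numbered 2, a comparison made after the values were seen. Of the 59 tested genes, 48 were higher in library 1 than in library 2 of both groups, against a background of 34.9% of all gene totals, and 3 were lower in both, against 23.1%. For 19 genes the difference was at least 2-fold in both groups on the FPKM + 1 scale (background 3.05%), and for 0 it was 2-fold the other way (background 1.58%). Summed over the 60 genes, the level was 2061 FPKM in IgG RIP 1 and 1332 FPKM in IgG RIP 2, and 2103 FPKM in KIAA1429 RIP 1 and 1256 FPKM in KIAA1429 RIP 2. The median fold of library 1 over library 2 on the same scale was 1.92 in IgG RIP and 2.05 in KIAA1429 RIP, and over all gene totals it was 1.11 and 1.03. Under the alternatives in pseudocount, filter, scaling and transcripts summed, the count of 48 ranged from 40 to 49 and the count of 19 from 14 to 22. Without CCNE1, CCNE2, CDKN3 and RRM1, which were listed at 0 in a library, the counts were 44 and 16 of 55 (backgrounds 35.4% and 2.33%).

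**Figure D3:**
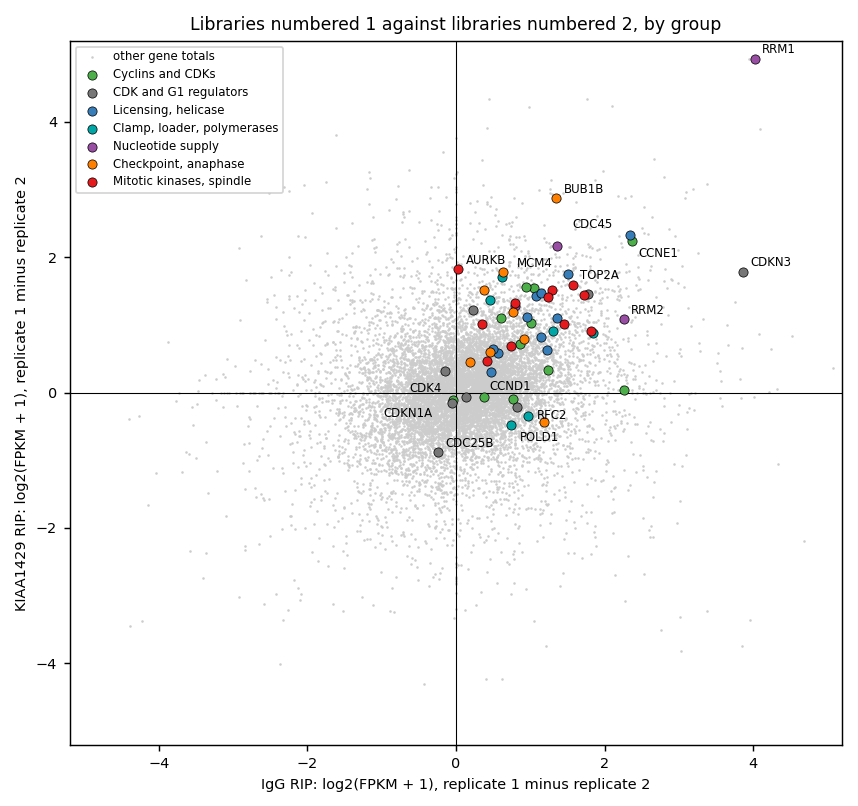
Difference in log2(FPKM + 1) between the libraries numbered 1 and 2 in IgG RIP (horizontal axis) and in KIAA1429 RIP (vertical axis); grey points are all tested gene totals (4 lie outside the axes) and coloured points are the 59 genes by role. The upper right quadrant holds 48 of the 59 genes, and CDK4, CDKN1A and CDC25B are the 3 in the lower left.

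The roles took unequal parts in this difference. All 11 tested licensing and helicase genes were higher in library 1 of both groups, as were all 11 genes of mitotic kinases, spindle, centromere and chromosomes and all 4 of nucleotide supply, among them RRM1 through its values of 0. Of the checkpoint and anaphase genes 7 of 8 were, of the cyclins and CDKs 8 of 11, of the replication fork 4 of 6, and of the CDK and G1 regulators 3 of 8. The 3 genes lower in library 1 of both groups were CDK4, CDKN1A and CDC25B, a phosphatase that activates CDKs. Those whose order differed between the groups were CCND1, CDK6, CDKN1B, CKS1B, RB1, RFC2, POLD1 and BUB3. The difference between roles was not tested.

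By level, the licensing and helicase genes summed to 241 and 111 FPKM with IgG, against 233 and 98.4 FPKM with the KIAA1429 antibody. The enzymes of nucleotide supply summed to 128 and 45.8 FPKM with IgG, against 133 and 33.0 FPKM with the KIAA1429 antibody, and without RRM1 to 113 and 45.8 FPKM with IgG, against 103 and 33.0 FPKM. The CDK and G1 regulators summed to 438 and 423 FPKM with IgG, against 446 and 363 FPKM with the KIAA1429 antibody. The licensing and nucleotide sums therefore differed by more than 2-fold between numbers in both groups, and the sum of the G1 regulators by less than that. The median coefficient of variation over the 4 libraries was 49.9% for the list and 33.4% for all gene totals, and the least variable genes after CDKN1A were CDK4 (4.67%), CCND1 (11.1%), CKS1B (16.3%) and CDKN1B (17.7%). Reference mRNAs also differed between the numbers, GAPDH in the opposite direction to most of the list and ACTB in the same one. GAPDH was at 432 and 779 FPKM with IgG, against 602 and 1076 FPKM with the KIAA1429 antibody, and ACTB was at 555 and 403 FPKM with IgG, against 304 and 224 FPKM with the KIAA1429 antibody. The share of listed transcripts at 0 was 26.6% and 32.2% with IgG, against 28.2% and 29.01% with the KIAA1429 antibody. The part of these in the difference was not tested. Whether a number marks a shared culture, day or batch is not given, and the 4 libraries are precipitates of bulk lysates with no input library. Fewer cycling cells, less of these mRNAs per cell, and differences in recovery, RNA quality or depth therefore cannot be told apart.

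A wider list of 140 genes of the same pathways, of which 139 were listed and 137 tested, was then examined. It was chosen with earlier results of these data known and uses the same libraries, so it is no independent repeat. Between antibodies 0 were called in limma, 1 had an unadjusted p under 0.05, 5 were separated upwards and 8 downwards, beside the same backgrounds of 16.6% and 15.2%. Those separated upwards, named after their values were seen, were PRIM1, TIPIN, ANAPC11, CENPH and GADD45A, and those separated downwards were ORC4, DBF4, CDC25C, ESPL1, NCAPD2, MAD1L1, E2F3 and CHEK1. PRIM1, the catalytic subunit of primase, was at 2.20 FPKM and listed at 0 with IgG, against 10.99 and 6.15 FPKM with the KIAA1429 antibody (limma unadjusted p = 0.011, adjusted p = 0.993). ESPL1, the separase that opens cohesin at anaphase, was at 11.8 and 12.1 FPKM with IgG, against 8.03 FPKM and listed at 0 with the KIAA1429 antibody (limma log2 fold change -2.11, SE 0.95, unadjusted p = 0.063, adjusted p = 0.997). Of the 137 genes, 105 were higher in library 1 of both groups, 45 of them at least 2-fold on the FPKM + 1 scale, and 5 were lower in both, beside 34.9%, 3.05% and 23.1% of all gene totals. The 105 were 40 of 45 replication genes, 54 of 65 genes of mitosis and 11 of 27 genes of G1 control. At least 2-fold were 21 replication genes, 23 genes of mitosis and 1 gene of G1 control.

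Promoters were searched because many of the genes that differed together between the libraries are known targets of E2F or of the complexes that bind the CHR element. RefSeq promoters (GRCh38.p14, 250 bases before to 50 after the start site) were at hand for 49 of the 60 genes. The letters searched on both strands were TTTCGCGC, TTTGGCGC, TTTCCCGC and TTTGCCGC for E2F, TTTGAA for the CHR element and CCAAT for the CCAAT box, and matches of different motifs may share bases. The windows below are those of the most abundant genes with a match among those at least 2-fold higher in library 1 of both groups. Genes of that set whose promoters held neither E2F nor CHR letters, such as CCNB1, were passed over. The match is in capitals and the strand is that of the gene.
MCM7 (E2F letters, chr7:100101388-100101417, minus strand): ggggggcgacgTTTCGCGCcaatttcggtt
E2F1 (E2F letters, chr20:33686387-33686416, minus strand): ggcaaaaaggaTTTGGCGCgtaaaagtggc
TOP2A (CHR letters on the opposite strand, chr17:40418030-40418059, minus strand): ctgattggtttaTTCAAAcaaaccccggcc
MKI67 (CHR letters, chr10:128126435-128126464, minus strand): tcttcgttttcgTTTGAAttgggcgggcgc
CENPF (CHR letters, chr1:214603215-214603244, plus strand): ccggtggcggctgcgggcagTTTGAAttag

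The E2F letters were in 7 of 10 promoters of the replication genes and in 3 of 17 of the mitotic genes, against 5.67% of the 8594 promoters of tested gene totals and 3.33% of all 27305 promoters. The CHR letters were in 0 of 10 and 11 of 17, against 9.17% and 15.4%. CCAAT was in 8 of 10 and 15 of 17, against 36.8% and 35.7%. The E2F letters were thus more frequent in promoters of replication genes and the CHR letters in those of mitotic genes, a difference that was not tested. Among the 16 genes with a promoter that were at least 2-fold higher in library 1 of both groups, 43.8% held the CHR letters and 12.5% the E2F letters. Among the other 32 tested genes the shares were 25.0% and 37.5%. Over the 238 promoters of all gene totals at least 2-fold higher in library 1 of both groups, they were 20.2% and 12.2%. E2F1, itself an E2F factor, was at 11.1 and 2.53 FPKM with IgG, against 9.004 and 2.66 FPKM with the KIAA1429 antibody, and CENPF, a kinetochore protein, at 26.2 and 8.96 FPKM with IgG, against 22.5 and 10.6 FPKM with the KIAA1429 antibody. A match of letters is a description and not a binding site.

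The motif of m6A, GGAC, was located in the genes separated by antibody, because the complex of KIAA1429 is known for m6A near stop codons and in the 3′ UTR. The GGAC nearest to the stop codon in the last exon of the most abundant listed transcript is shown for the 7 genes in which such a window lay within the listed locus (GRCh37, GGAC in capitals, written on the strand of the gene).
CDK4 (chr12:58142245-58142268, minus strand, 3′ UTR): tttcccttctGGACactgagaggg
CDKN1B (chr12:12874064-12874087, plus strand, 3′ UTR): ttcatggaatGGACatcctgtata
CKS1B (chr1:154951448-154951471, plus strand, 3′ UTR): agtgctctgtGGACccacagccta
CDT1 (chr16:88874693-88874716, plus strand, 3′ UTR): gggccactgtGGACagacgtgggc
AURKB (chr17:8108308-8108331, minus strand, coding sequence): tgggagcccaGGACctcatctcca
RB1 (chr13:49054206-49054229, plus strand, 3′ UTR): gaggatctcaGGACcttggtggac
RFC2 (chr7:73645968-73645991, minus strand, 3′ UTR): tttgcttctgGGACgtctgtgccc

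All 57 tested genes with an annotated transcript held GGAC, so its presence could not set the genes higher or lower with the KIAA1429 antibody apart. RB1 had 18 GGAC in 4768 bases and RFC2 2 in 1685 bases, while CDT1 had 16 in 2664 bases and CKS1B 3 in 779 bases. Of the genes separated downwards without a window above, POLD1 had 34 in 3524 bases, the highest density of the list, and BUB1 4 in 3532 bases. These lengths and GGAC numbers are those of the annotated transcripts, whose ends can differ from the listed ones. The density given for POLD1 may therefore not be that of its listed form. Over the 57 tested genes with an annotated transcript, GGAC per kilobase had a median of 3.57, against 3.60 over 11063 gene totals. Across genes, Spearman's rho between GGAC per kilobase and the log2 difference between antibodies was -0.20 for the list and -0.09 for all gene totals. With transcript length it was -0.07 and -0.19. These points share the same 4 libraries and genes are not replicates, so the values are descriptive.

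Single transcripts were examined because a gene total hides shifts among its transcripts. Of the 184 transcripts, 100 were listed at 0 in at least 1 library, and 18 genes had a single listed transcript while AURKA had 10. In the whole data every listed transcript had a mean of at least 0.50 FPKM in 1 or both groups. A form listed at 0 in a group was therefore in the data only through the other group, and its separation is no support for a difference. For the 141 transcripts whose mean reached 1 FPKM, limma called 0 (4 at an unadjusted p under 0.05, lowest adjusted p = 0.741), where the background over 23375 transcripts was 0% in each direction. For 14 the libraries were separated upwards (background 15.2%) and for 13 downwards (background 14.5%). Transcripts that were separated and at least 4-fold apart or listed at 0 in a group numbered 16, in 12 genes.

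PCNA-202 was listed at 0 in both IgG RIP libraries and was at 8.23 and 4.50 FPKM in the KIAA1429 RIP libraries, a limma log2 fold change of 2.83 (SE 0.67, adjusted p = 0.741). It was in the data only through KIAA1429 RIP, so this fold change is no support for a difference. PCNA-201, the main form, was at 54.9 and 14.6 FPKM with IgG, against 34.6 and 18.2 FPKM with the KIAA1429 antibody. Both are protein_coding and listed with the same end on chromosome 20 and different starts of transcription (chr20:5095599-5107272 and chr20:5095599-5100672, minus strand, GRCh37). Shares of 0% and 19.4% of the gene total of PCNA were thus assigned to PCNA-202.

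Of the listed forms of CDK4, none passed the limma test. CDK4-206 was listed at 0 in both IgG RIP libraries and was at 4.52 and 3.84 FPKM in KIAA1429 RIP (log2 fold change 2.37, SE 0.69, adjusted p = 0.829). It too was in the data only through KIAA1429 RIP, so its separation is no support for a difference. CDK4-203 was at 1.29 FPKM and listed at 0 with IgG, against 3.49 and 2.49 FPKM with the KIAA1429 antibody (log2 fold change 1.39, SE 0.78, adjusted p = 0.879). CDK4-211 was lower with that antibody, at 19.6 and 4.26 FPKM with IgG, against 1.15 and 1.94 FPKM (limma log2 fold change -2.05, SE 0.81, adjusted p = 0.879). The main form CDK4-201 was between 70.2 and 84.2 FPKM in the 4 libraries, and on it alone the difference for CDK4 was 0.004 in place of -0.08.

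In POLD1, POLD1-213 was at 11.1 and 4.44 FPKM with IgG, against 1.87 FPKM and listed at 0 with the KIAA1429 antibody. POLD1-214, at 8.50 and 2.42 FPKM with IgG, against 0.79 and 4.08 FPKM with the KIAA1429 antibody, overlapped. POLD1-210 was at 4.42 FPKM in IgG RIP 2 and listed at 0 in the other libraries. The libraries of POLD1-213 were therefore separated as those of the total were, and those of POLD1-214 and POLD1-210 were not, although POLD1-210 made up as much of the total in IgG RIP 2 as POLD1-213 did. POLD1-213 is listed as ending inside the gene (chr19:50887599-50905399, plus strand, GRCh37), whereas POLD1-214 is listed as running to its end (chr19:50887580-50921275). In the annotation POLD1-213 had 28 exons and 3524 bases, and whether the listed form has this structure was not tested.

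In AURKB, AURKB-214 was at 10.03 and 16.8 FPKM with IgG, against 2.55 FPKM and listed at 0 with the KIAA1429 antibody (log2 fold change -2.90, SE 0.79, adjusted p = 0.819). AURKB-201 was listed at 0 and at 0.11 FPKM with IgG, against 0.32 and 3.84 FPKM with the KIAA1429 antibody. CKS1B-206, a processed_transcript, was at 0.80 and 15.8 FPKM in IgG RIP and listed at 0 in both KIAA1429 RIP libraries. That form was in the data only through IgG RIP. These shifts lie between overlapping forms of a gene, where the division of reads among transcripts is uncertain.

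The remaining named forms were low. Higher with the KIAA1429 antibody were CCNE1-201 (0.16 FPKM and listed at 0, against 5.96 and 0.47 FPKM), AURKA-210 (2.01 FPKM and listed at 0, against 5.10 and 4.89 FPKM), TTK-202 (listed at 0, against 0.70 and 1.16 FPKM), CENPE-204 (listed at 0, against 1.10 and 1.04 FPKM) and MKI67-205 (0.12 FPKM and listed at 0, against 0.14 and 1.29 FPKM). Lower were CDK1-207 (3.92 and 0.40 FPKM, against listed at 0), CDK1-204 (2.16 and 1.08 FPKM, against listed at 0) and CDKN1A-206 (0.92 and 3.03 FPKM, against 0.66 FPKM and listed at 0). Of the 16 forms, 12 had a mean high enough to be tested, and none of these passed the test.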

How the data were processed

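RIP-seq of HCCLM3 cells gave 4 libraries, 2 per group, grouped by the labels. The authors selected polyadenylated RNA out of each precipitate, broke it chemically, primed it randomly and sequenced it. They deposited FPKM values per transcript. The paper names HISAT2 and the submitters' processing notes name Bowtie2 2.1.0, both with GRCh37 (hg19), and the tool that computed FPKM is not given in the sources used here. FPKM did not follow whole-read steps, so depth is unknown and no count test was run.

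FPKM was summed per gene name (Python 3.11.15, pandas 2.3.3). Gene totals (11361) and transcripts (23375) whose mean reached 1 FPKM entered limma 3.58.1 (R 4.3.3) as log2(FPKM + 1) (trend, two-sided, Benjamini-Hochberg over all features tested) and the limma fit was tested on simulated data. The error of a fold change is limma's standard error. Transcript features came from GENCODE 44 mapped to GRCh37 and promoters from RefSeq. Of the listed transcripts in this annotation, 72.1% had the same start.

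Genes were named if their groups did not overlap, if they were among the 5 largest rises or falls of the log2 ratio, if they were the 2 most abundant of a role, or if they were PCNA, MCM2 to MCM7, CDK1, CCNB1, CCND1, CDKN1A, TOP2A or MKI67. Their transcripts were named if separated and at least 4-fold apart or listed at 0 in a group. Applying this to all members added AURKA-210, TTK-202 and CCNE1-201, chosen after their values were seen. VIRMA, GAPDH and ACTB were added as references. The members and lists were chosen with earlier results of these data known. Alternatives were pseudocounts of 0.1 and 0.01, no filter or a mean of at least 5 FPKM, 3 scalings, the replicate block, limma without trend, the most abundant transcript, protein_coding transcripts alone, and each library left out.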

Additional observations from a re-analysis of the deposited data

How the results depend on the processing

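Limma called 0 genes of the list and 0 of the wider list under the 15 alternatives, and 0 transcripts under 13. Since it called 0 of all features as well, other than 13 gene totals with the replicate block, this says nothing about stability. With a library left out, the lone library is assumed to vary like the other group. With the replicate number as a block there were 0 calls among the 59 genes (7 at an unadjusted p under 0.05, lowest adjusted p = 0.149 for POLD1), and over all alternatives the lowest adjusted p among the 59 genes ranged from 0.149 to 1. The labels give both groups the numbers 1 and 2 without saying what they mark, and with only 2 such pairs the numbers were not taken as a pairing. Deviations of same-numbered libraries from their group means had a Pearson correlation of 0.584 over the 59 genes, 0.187 over all gene totals and 0.03 over transcripts. Spearman's rho was 0.459 over the 59 genes and 0.211 over all gene totals. The count separated upwards was 1 instead of 2 with the same FPKM sum and with protein_coding transcripts alone, and the count separated downwards, 8, ranged from 6 to 9. Scaling to the same FPKM sum also moved the median log2 difference of all gene totals from 0.02 to -0.11. The difference between replication and mitotic genes moved to -0.347 with the most abundant transcript and to 0.0194 with protein_coding transcripts alone, and lay between -0.209 and -0.0922 with each library left out. The cause of these moves was not tested. Over 13 settings, 48 of 59 genes changed sign at least once, 24 of them without a library left out, and 7 of the 10 separated genes never did. A separated gene cannot change sign when a library is left out or the pseudocount changes, so the 7 of 10 do not measure stability. CDK4, RFC4 and BUB1 changed sign on the most abundant transcript alone. The unknown depth leaves genes and transcripts of a few FPKM without a counting error.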
